A study of Mus musculus with 2 samples.

Results

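Leydig cells of the RAD21L KO testis were picked out of a single-cell RNA sequencing library by 4 of their own transcripts. A barcode, the tag shared by all transcripts of 1 droplet, was called a Leydig barcode where Cyp17a1, Insl3, Hsd3b1 and Cyp11a1 together gave at least 5 UMIs (unique molecular identifiers, which count captured transcripts) and at least 0.3% of its UMIs. Of the 6409 KO barcodes with at least 500 detected genes, 749 met this rule, 11.7% (10.9% to 12.5%). Ranges in parentheses are exact 95% intervals and cover counting error only.

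The study profiled whole testes of mice 55 days old. There was 1 library of Rad21l+/+ testis (WT) and 1 of Rad21l-/- testis (RAD21L KO, without a meiotic cohesin subunit). The labels name no other allele or treatment, and neither the lesion in Rad21l nor the number of mice behind a library. With 1 library per genotype there is no replicate, no test was run, and a difference between the libraries cannot be told apart from a difference between the animals or preparations.

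Leydig cells lie between the seminiferous tubules and make testosterone when luteinising hormone binds its receptor, Lhcgr. Cholesterol is carried into mitochondria by Star and cleaved to pregnenolone by Cyp11a1 with electrons from Fdx1 and Fdxr. The 3-beta-hydroxysteroid dehydrogenases Hsd3b1 and Hsd3b6, Cyp17a1 and Hsd17b3 then complete the route, and Insl3 is the peptide hormone of the same cells. Many promoters of this route carry sites of the nuclear receptor NR5A1 (SF-1).

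The promoters of 4 genes are shown, since the results return to Hsd3b1 and Hsd3b6 as alternative enzymes of 1 step and to Insl3 and Hsd17b3 as products of the same cells. Each is given 5′ to 3′ on the gene's strand and covers bases 250 to 51 before the transcription start in RefSeq's GRCm38.p6 annotation. Capitals mark matches to a motif of the NR5A1 type, which is CAAGG followed by CC, CT, TC or TT, searched on both strands.
Insl3, chr8:71689002-71689201, plus strand: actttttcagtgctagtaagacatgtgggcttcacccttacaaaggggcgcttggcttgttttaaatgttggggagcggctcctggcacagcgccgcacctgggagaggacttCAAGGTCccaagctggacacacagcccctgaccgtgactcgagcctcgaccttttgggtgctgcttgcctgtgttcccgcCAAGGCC
Hsd17b3, chr13:64089252-64089451, minus strand: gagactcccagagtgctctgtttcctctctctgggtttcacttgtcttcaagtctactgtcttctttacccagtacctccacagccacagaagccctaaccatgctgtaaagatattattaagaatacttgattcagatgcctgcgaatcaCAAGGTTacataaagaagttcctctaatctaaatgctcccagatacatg
Hsd3b1, chr3:98859845-98860044, minus strand: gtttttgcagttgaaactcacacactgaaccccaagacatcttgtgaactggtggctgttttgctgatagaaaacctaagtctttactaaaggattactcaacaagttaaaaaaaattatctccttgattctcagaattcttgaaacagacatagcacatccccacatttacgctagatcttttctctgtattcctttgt
Hsd3b6, chr3:98814494-98814693, minus strand: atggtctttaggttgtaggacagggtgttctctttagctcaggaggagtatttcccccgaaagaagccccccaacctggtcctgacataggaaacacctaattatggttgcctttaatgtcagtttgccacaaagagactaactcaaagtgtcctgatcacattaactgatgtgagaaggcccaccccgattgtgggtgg
Insl3 held 2 matches and Hsd17b3 held 1, while the windows of Hsd3b1 and Hsd3b6 held none. Over the 250 bases before the start, 17.1% of 27025 genes had a match, against 2 of the 7 androgen synthesis enzymes found in the table and 3 of 18 genes of cholesterol synthesis. A match is a description of letters and not a site.

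The barcodes chosen by the rule were deep. Their median was 7236 UMIs and 2818 genes, against 2940 UMIs and 1674 genes in the other 5660, so they were 11.7% of barcodes and 19.3% of UMIs. The 4 rule genes took a median of 1.34% of their UMIs (lowest 0.308%, highest 3.51%) and 0.0269% of the summed UMIs of the other barcodes. These shares chose the barcodes and are no result.

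**Figure D1:**
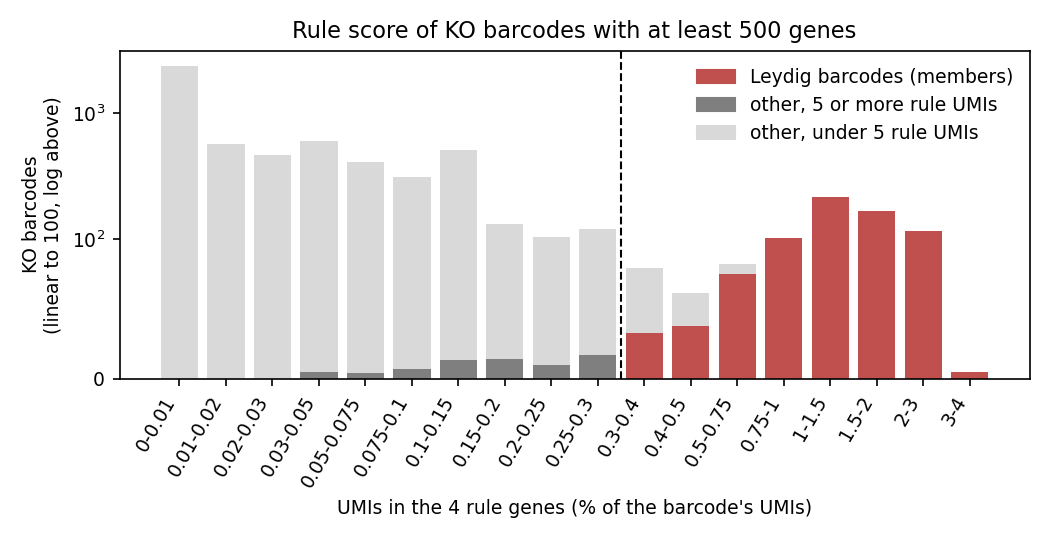
Number of KO barcodes (vertical axis, linear to 100 and logarithmic above) by the share of their UMIs in the 4 rule genes (horizontal axis, percent, in bins of unequal width). The dashed line is the 0.3% limit; red bars are the 749 Leydig barcodes, dark grey bars other barcodes with 5 or more rule UMIs and light grey bars those with fewer, including 76 above the limit.

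Near the limit the barcodes did not separate cleanly. The 33 barcodes just inside it (0.3% to 0.4%) held Star at 1986 CPM (summed UMIs of the gene, scaled by the summed UMIs of all genes in those barcodes) and Hsd17b3 at 439 CPM. The 27 just outside (0.2% to 0.3%, with at least 5 UMIs) held Star at 1824 CPM and Hsd17b3 at 361 CPM. Another 76 barcodes passed the share and missed the 5 UMIs, at a median depth of 831.5 UMIs. The limit of the rule thus lies within a range, with barcodes of like Star level on both sides.

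Markers of other testis cells took small shares of the summed UMIs of the Leydig barcodes. The 6 Sertoli cell markers took 0.0622%, against 0.388% in all other KO barcodes and 0.769% in the class that those markers chose. The 6 stromal markers took 0.0632%, near the 0.0714% of all other KO barcodes, against 0.930% in their own class. The 8 myeloid markers took 0.0121%, against 0.111% and 1.96%, and the 8 germ cell markers 0.0165%, against 0.191% and 0.541%. Of the lymphoid markers Trbc2 and Nkg7 were at 0. In 49 Leydig barcodes (6.54%) another class also passed the same limits, the Sertoli markers in 30 of them, and Scrublet, a doublet caller, marked 38 (5.07%) against 152 of all 6409 (2.37%). Doublets were kept, and their part in the results was measured only by leaving these barcodes out. The libraries share 14 barcode sequences, 3 of them KO Leydig barcodes.

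Of transcripts that the rule did not use, those of steroid synthesis were high. Against the other KO barcodes 1740 of 17184 genes were at least 2-fold higher in the Leydig barcodes (percent called 10.1) and 7463 at least 2-fold lower (percent called 43.4). The median gene stood at a log2 ratio of -0.83. With that gene set to a ratio of 1, the counts were 3602 higher and 3514 lower. Since the rule divided the same barcodes, these counts and the levels below describe the cells and were not tested. Counts in the gene lists below are to be read beside the shares over all genes, 10.1% higher and 43.4% lower.

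Of the 6 androgen synthesis enzymes outside the rule, 5 were at least 2-fold higher and 0 lower, with a median log2 ratio of 3.14. Hsd3b6 stood at 2897 CPM against 80.9 CPM in other KO barcodes, 35.8 times (34.1 to 37.6). Hsd17b3, which turns androstenedione into testosterone, stood at 719.5 against 19.1 CPM, 37.8 times (34.2 to 41.8). Fdx1, the small iron-sulphur protein that feeds electrons to Cyp11a1, stood at 1935 against 126 CPM, and its reductase Fdxr at 339 against 66.3 CPM. The redox partners that serve many other enzymes differed less: Por stood at 2.06 times (1.87 to 2.25) the other level, and Cyb5a, the only one of the 6 under 2-fold, at 1.73 times (1.64 to 1.83). Cyb5a was at 379 CPM in Leydig barcodes and 374 CPM in barcodes carrying Sertoli markers.

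Among single Leydig barcodes the spread was wide. Star had a UMI in 93.2% of the 749, with a median of 2340.0 CPM, a 5th percentile of 0 and a 95th percentile of 6781 CPM. Hsd17b3 had one in 84.2%, with a median of 549.7 and a 95th percentile of 1878 CPM. The lowest barcodes were at 0 for both genes. For shares that do not depend on depth, each barcode was thinned at random to 2000 UMIs, which left 695 Leydig barcodes and 1016 with germ cell markers. Star then had a UMI in 93.4% of Leydig and 12.6% of germ cell marker barcodes (25.8% unthinned). For Hsd17b3 the shares were 68.8% and 1.77% (5.52% unthinned). Whether the germ cell shares come from free RNA in the droplets, from doublets or from the germ cells was not tested. The median depths before thinning were 7236 and 4524 UMIs.

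Several Leydig transcripts stood at a low share of their Leydig level in germ cell marker barcodes. There Lcn2 was at 1.31% of its Leydig level, Hsd17b3 at 1.58%, Prlr at 1.21%, Lhcgr at 1.10% and Fabp3 at 1.78%. Other genes had higher shares there, at 2.08% for Star, 5.83% for Fdx1 and 10.2% for Cyb5a. In other classes some genes stood above their share in germ cell marker barcodes. Prlr in stromal marker barcodes stood at 22.6% of its Leydig level, and Star in Sertoli marker barcodes at 7.75%. Lhcgr stood at 127 CPM (34 UMIs) in barcodes with markers of myoid (contractile) cells, against 440.1 CPM in Leydig barcodes.

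**Figure D2:**
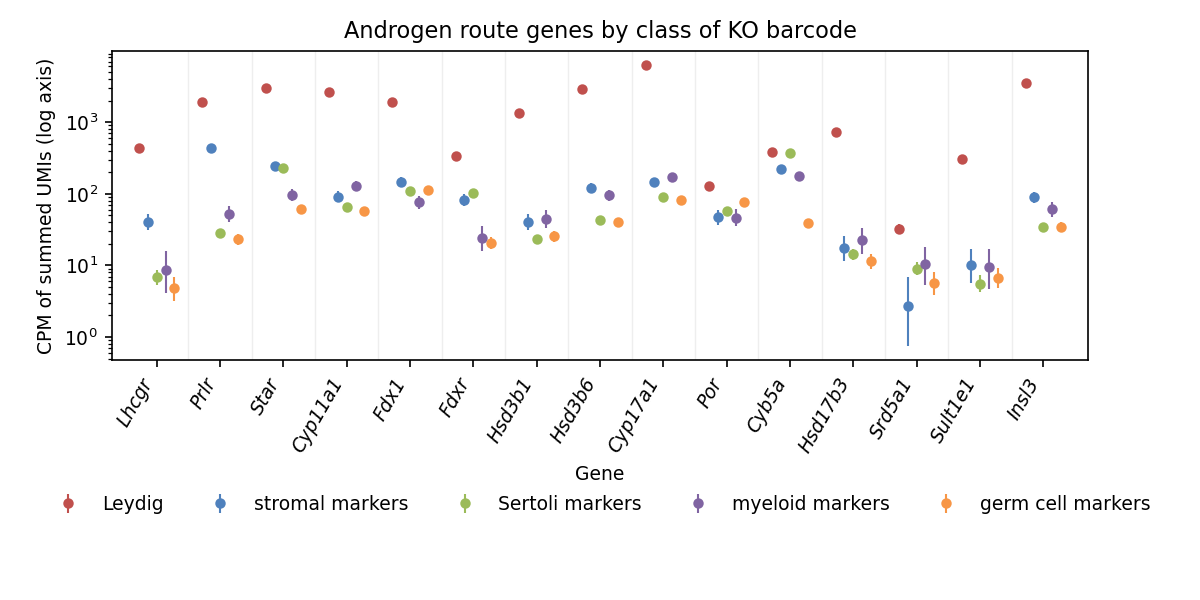
Level of 15 genes of androgen synthesis, its hormone receptors and Insl3 (CPM of summed UMIs, log axis) in 5 classes of KO barcode; bars are exact Poisson 95% intervals. Leydig barcodes (red) are highest for all 15 genes, by little for Cyb5a (379 against 374 CPM in Sertoli marker barcodes); Cyp11a1, Hsd3b1, Cyp17a1 and Insl3 chose the barcodes.

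Cholesterol reaches the route by uptake, from stores and by synthesis. Of 15 genes that supply it to mitochondria, 5 were at least 2-fold higher, Star, Stard4, Stard5 and Lipe among them, and 1 lower (Stard3, at 13.0 against 34.4 CPM). Star, the acute regulator of import, stood at 2988 against 185 CPM, 16.1 times (15.6 to 16.7). Scarb1, the receptor for high-density lipoprotein, stood at 216 CPM in Leydig barcodes, 149 in all others and 255 in Sertoli marker barcodes. It was higher still in the 27 barcodes with endothelial markers, at 762 CPM (68 UMIs). Soat1, which stores cholesterol as esters, stood at 434 CPM in Leydig barcodes, 247 in all others, 457 with Sertoli and 78.5 with endothelial markers.

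Cholesterol synthesis genes were high almost throughout. Of the 23 genes, 22 were at least 2-fold higher in Leydig than in other KO barcodes and 0 lower, with a median log2 ratio of 2.42. The exception, Scap, the escort of the factor Srebf2, stood at 128 against 64.3 CPM, just under the limit. Sc5d, a sterol desaturase, stood at 409 against 24.1 CPM, 17.0 times (15.4 to 18.7), and Tm7sf2, a sterol reductase, at 70.1 against 3.01. Ratios varied along the route: Hmgcs1, a synthase near the start, stood at 736 against 139 CPM, 5.28 times (5.04 to 5.54), and Ebp, a sterol isomerase of the later steps, at 232 against 90.7 CPM, 2.56 times (2.38 to 2.74). Among single Leydig barcodes Sc5d had a median of 325 and a 95th percentile of 1103 CPM, with a UMI in 80.4%.

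**Figure D3:**
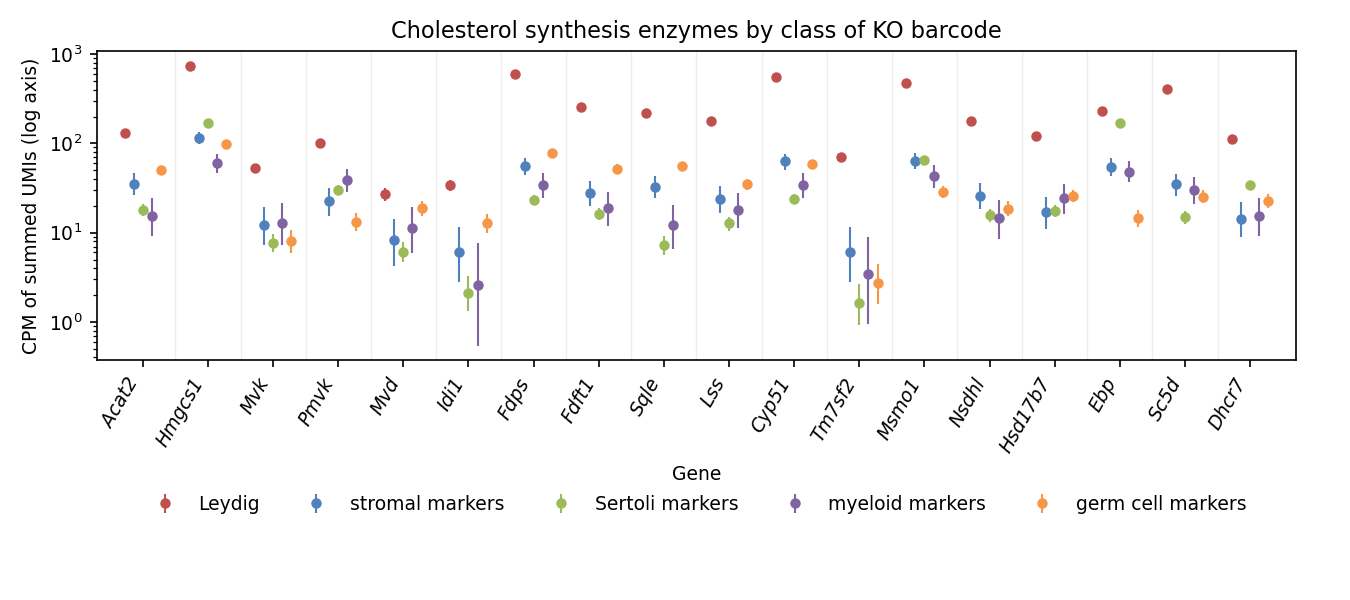
Level of 18 cholesterol synthesis enzymes in the order of the route (CPM of summed UMIs, log axis) in 5 classes of KO barcode; bars are exact Poisson 95% intervals. Leydig barcodes are highest for all 18 genes; the nearest class is that with germ cell markers for Mvd (27.1 against 18.8 CPM) and that with Sertoli markers for Ebp (232 against 168 CPM).

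Fatty acid genes went both ways. Of 15 genes of lipid droplets and fatty acids, 14 had enough UMIs, 6 were at least 2-fold higher and 3 lower (Cidea, Lpl and Dgat2). Fabp3, a fatty acid carrier, stood at 4911 against 174 CPM and Cd36, a fatty acid receptor, at 356 against 12.3. Cidea, a protein of lipid droplets, stood at 10.2 against 100.5 CPM, and at 193 in Sertoli marker barcodes. Cidec had no UMI in Leydig barcodes.

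Of 9 genes that modify steroids, 3 were at least 2-fold higher (Srd5a1, Akr1c14 and Sult1e1) and 1 lower (Cyp1b1), with 2 under the limit on UMIs. Sult1e1, the sulphotransferase that inactivates oestrogen, stood at 303 against 7.73 CPM, 39.2 times (33.5 to 46.1). Srd5a1, a 5-alpha-reductase, stood at 32.4 against 7.77 CPM. Aromatase, Cyp19a1, had 0 of 5310445 UMIs, and the limit for a count of 0, set at 3 UMIs, is 0.565 CPM. Of genes that mark adrenal-type steroid cells, Cyp11b2 and Mc2r were at 0 and Cyp21a1 had 33 UMIs (6.21 CPM). Mrap, the accessory protein of the Mc2r receptor, stood at 417 against 14.9 CPM, with a UMI in 76.4% of barcodes. Thbs2, a gene of fetal Leydig cells, had 1 UMI.

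Receptors for luteinising hormone and prolactin were high. Lhcgr, the receptor for luteinising hormone, stood at 440.1 against 14.3 CPM, 30.7 times (27.3 to 34.6), and the prolactin receptor gene Prlr at 1920.0 against 81.1, 23.7 times (22.5 to 24.9). After thinning, Lhcgr had a UMI in 51.4% of Leydig and 1.18% of germ cell marker barcodes (79.4% and 2.45% unthinned). The oestrogen receptor gene Esr1 stood at 123 against 8.04 CPM. Of the 17 genes of luteinising hormone receptor and cyclic AMP signalling, 2 were at least 2-fold higher, Lhcgr and the phosphodiesterase Pde8b. Another 2, Pde4b and Creb1, were at least 2-fold lower. Over all genes 10.1% were higher and 43.4% lower, so the count of higher genes is near that share. The stimulatory G protein gene Gnas, used by most cells, stood at 1142 against 699 CPM.

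Of 16 transcription factors of the steroid lineage, 4 were at least 2-fold higher (Nr5a1, Nr2f2, Tcf21 and Cebpb). Nr5a2, Gata6, Nr0b1, Mef2a and Zfpm2 were at least 2-fold lower, where 10.1% of all genes were higher and 43.4% lower. Against stromal marker barcodes, 14 of the factors had enough UMIs. There 2 were at least 2-fold higher and 6 lower (11.4% and 17.5% of all genes), Nr2f2 and Tcf21 among the lower. Nr5a1, the master regulator of steroid enzymes, stood at 204 CPM against 61.1 in other barcodes and 104 in Sertoli marker barcodes. Cebpb stood at 93.4 against 18.8 CPM and Nr2f2 at 179.6 against 50.6. Nr0b1, a repressor of Nr5a1, stood at 15.8 CPM, against 148 in Sertoli marker barcodes.

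The secreted factors divided. Ptgds, which makes prostaglandin D2, stood at 2773 against 106 CPM, and Agt, angiotensinogen, at 1251 against 70.7. The chemokine gene Cxcl12 stood at 215 against 27.5 CPM and Csf1, the macrophage growth factor, at 151 against 27.2. Igf1 stood at 22.8 CPM, against 1715 in stromal and 533 in myeloid marker barcodes. Inha, the inhibin alpha subunit, stood at 421 CPM, against 1211 in Sertoli marker barcodes. Of the 11 factors outside the rule, 5 were at least 2-fold higher (Ptgds, Agt, Cxcl12, Csf1 and Vegfa) and 4 lower (Igf1, Inhba, Inhbb and Igfbp3). The shares over all genes were 10.1% higher and 43.4% lower. Insl3 lies inside the Jak3 gene on the same strand in the GRCm38 annotation, and Jak3 was at 45.9 CPM in Leydig and 2.56 in other KO barcodes, so reads of the pair may have been divided between them.

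Antioxidant and detoxifying genes took a larger share of UMIs. The 23 genes of this list took 2.30% of Leydig UMIs and 0.579% of those of other barcodes, and 14 were at least 2-fold higher and 0 lower. Gstm1, a glutathione transferase, stood at 8117 against 1036 CPM. Ephx1, an epoxide hydrolase, stood at 1097 against 29.4 CPM, 37.3 times (34.4 to 40.5), and Aldh1a1, which makes retinoic acid, at 3057 against 344. Gsta4 was at 374 against 432 CPM, and at 814 in Sertoli marker barcodes.

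The Leydig barcodes held few transcripts of dividing cells. All 12 proliferation genes were at least 2-fold lower than in the other KO barcodes, which include germ cells, and 9 of them with the median gene set to a ratio of 1. Mki67, a marker of cycling cells, stood at 27.7 CPM, against 757 in germ cell and 35.5 in stromal marker barcodes. Against stromal marker barcodes 0 of the 12 were 2-fold apart.

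Cohesin was measured because the missing protein is one of its subunits. Of the 14 cohesin and CTCF genes, 9 were at least 2-fold lower than in other KO barcodes, which include germ cells, and 0 higher. Among all genes 43.4% were lower and 10.1% higher. With the median gene set to a ratio of 1, 4 of the 14 were lower and 1 higher. The mitotic kleisin gene Rad21 stood at 85.1 CPM against 228 and the core subunit gene Smc3 at 120.3 against 364. Against stromal marker barcodes, 3 of the 12 genes with enough UMIs were at least 2-fold lower, where 17.5% of all genes were. Against Sertoli marker barcodes it was 3 of 13, where 33.9% of all genes were, and 0 were higher in either comparison. Rad21l itself had 2 UMIs in the KO Leydig barcodes (0.377 CPM), against 14.3 CPM in germ cell marker barcodes, and 0 UMIs in the WT Leydig barcodes. At that depth the limit of 3 UMIs for a count of 0 is 49.2 CPM, so the WT cells do not show whether Leydig cells make Rad21l.

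Early response genes lay between the other interstitial classes and the germ cells. Fos stood at 2259 CPM in Leydig barcodes, 6439 in stromal, 3229 in myeloid and 116 in germ cell marker barcodes, and Jun at 2496, 7123, 3991 and 129.9. Of 19 early response and heat shock genes, 10 were at least 2-fold higher than in other KO barcodes, where 10.1% of all genes were. Against stromal marker barcodes 11 of the 19 were at least 2-fold lower, where 17.5% of all genes were. Whether dissociation of the tissue set these levels was not tested.

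Genes of secreted proteins were among those with the highest ratios. The 25 leading genes by ratio, among those with at least 50 Leydig UMIs, included Klk1 and 5 genes of the Klk1b kallikrein proteases, as well as Lcn2, Lrg1, Bpifb1, Bpifb5, Cstdc2 and Itih2. Lcn2, a carrier of iron-binding molecules known from inflammation, stood at 8615 against 188 CPM, 45.8 times (44.3 to 47.2). Bhmt, a methyltransferase of the methionine cycle, stood at 2118 against 46.4 CPM, 45.6 times (42.8 to 48.7). Oxtr, the oxytocin receptor gene, stood at 87.2 against 2.34 CPM, 37.3 times (28.0 to 50.7). Klk1b21 stood at 484 against 9.93 CPM, but 20.6% of its 50-base stretches also occur in Klk1b24, so counts of single kallikrein genes are uncertain. The other leading genes were Ugt3a2, Rhbg, Col26a1, Klhl14, Arhgef19, Cyp4f14, Sult1e1, Cdhr5, Hsd17b3, Ttc23l and Ephx1. Of the 21 leading genes with a promoter in the table, 11 (52.4%) held the NR5A1-type motif in the 250 bases before a start, against 17.1% of all genes. They were Bhmt, Bpifb5, Cdhr5, Cyp4f14, Ephx1, Hsd17b3, Itih2, Klk1, Klk1b21, Lcn2 and Oxtr. Related kallikrein genes share sequence, and no inference is drawn from the matches.

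Stromal cells lie in the interstitium beside Leydig cells, and their marker barcodes differed from the Leydig barcodes in both directions. Against these 681 barcodes, 1402 of 12344 genes were at least 2-fold higher in Leydig barcodes (percent called 11.4) and 2158 lower (percent called 17.5). All 23 cholesterol synthesis genes and 5 of the 6 androgen enzymes were among the higher. All 11 of the progenitor genes with enough UMIs were among the lower; the list includes the stromal markers Pdgfra, Dcn and Col1a1, which chose the stromal class. Of those that did not, Tcf21 stood at 84.0 against 450.2 CPM and Igf1 at 22.8 against 1715. Pgbd5, a transposase-derived gene, led the genes higher in Leydig barcodes, at 121 against 2.05 CPM, followed by Klk1b22, Nat8, Bpifb5, Oxtr, Plxnb1, Cstdc2, Hsd17b3, Klk1b27 and Lcn2. Among the genes with the highest stromal over Leydig ratio were Mfap4, Penk, Col15a1, Col1a1, Col6a3, Apod, Adamts5, Tcf23 and Mamdc2. Adamts5, a matrix protease, stood at 1490.5 CPM in stromal marker barcodes and 13.6 in Leydig barcodes.

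Sertoli cells, the support cells of the tubules, made up the largest named class of KO barcodes. Against the 2132 Sertoli marker barcodes, 2318 of 14345 genes were at least 2-fold higher in Leydig barcodes (percent called 16.2) and 4856 lower (percent called 33.9). Of the cholesterol synthesis genes, 21 of 23 were higher, the exceptions being Ebp and Scap.

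Genes differed in how far they varied from one Leydig barcode to the next. After thinning to 3000 UMIs (674 barcodes kept, 75 left out), a variance over mean of 1 is what counting alone gives. The median over 2522 genes was 1.06 and 82 genes exceeded 2. Malat1, a nuclear RNA, had the highest value at 41.1, followed by Lcn2 at 25.1, Ptgds at 20.6, Cst3 at 13.7, Gstm1 at 10.3, Bhmt at 8.60 and Agt at 8.33. The housekeeping gene Gapdh was at 1.07. The steroid route lay between, with Hsd3b1 (a rule gene) at 6.58, Star at 5.12 and Hsd17b3 at 2.07. For a gene that varies beyond counting, this measure rises with its mean level. Mean UMIs were 284 for Malat1, 24.8 for Lcn2, 24.2 for Gstm1, 2.14 for Hsd17b3 and 1.35 for Gapdh. The order therefore partly follows expression and does not rank genes by relative variation. Lcn2 ran from 0 to 168 UMIs of 3000, with a median of 17 and a 95th percentile of 75.

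Some of these genes varied together. Across the 674 thinned barcodes of this library, Pearson r was 0.53 for Lcn2 with Lrg1, 0.42 for Lcn2 with complement C3 and 0.44 for Lrg1 with C3, 3 genes known from the acute phase response. It was 0.48 for Cst3 with Cstdc2, 2 cystatin genes, and 0.40 for Agt with Cyp11a1, a rule gene whose level helped to choose the barcodes. The barcodes share 1 library, and the values describe them only. Lrg1 and C3 were at 0 in 50% and 69.7% of the thinned barcodes, so their correlations rest on the remaining barcodes.

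The 2 enzymes of the 3-beta-hydroxysteroid step varied in opposite directions. Pearson r of Hsd3b1 with Hsd3b6 was -0.39 over all 674 barcodes, and -0.39 and -0.40 in the shallower and deeper 337. Without barcodes that carried another class's markers or were marked by Scrublet, which left 629, it was -0.42. Hsd3b1 is a rule gene, so barcodes low in it entered less readily. Hsd3b6 had 0 or 1 UMIs of 3000 in 124 barcodes (18.4%), 2 or 3 in 49 and 4 or more in 501. These limits were chosen after the values were seen, and they divide a range and do not define a cell type. Hsd3b1 had a median of 7 UMIs in the low group and 1 in the high group.

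**Figure D4:**
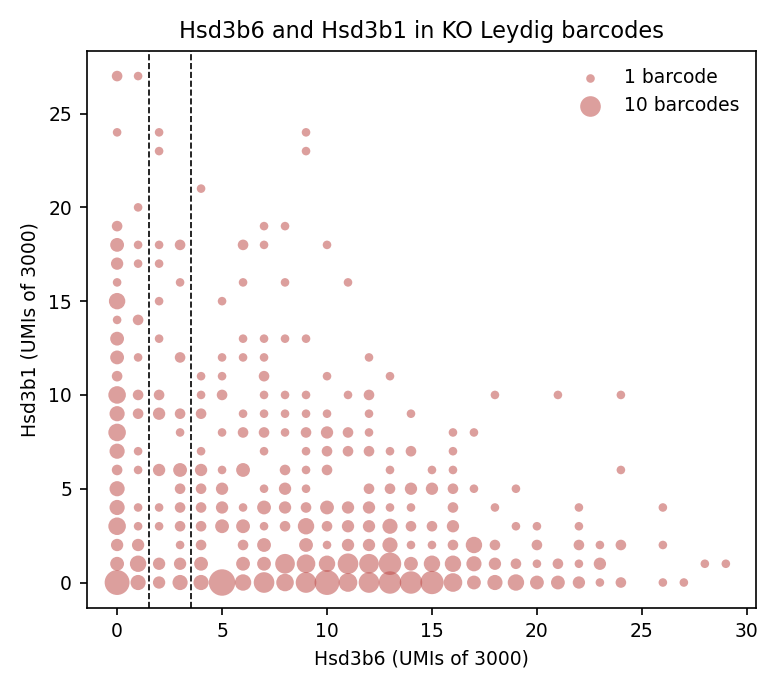
UMIs of Hsd3b6 (horizontal axis) and Hsd3b1 (vertical axis) in 674 KO Leydig barcodes thinned to 3000 UMIs; point area grows with the number of barcodes. The dashed lines part barcodes with 0 or 1, 2 or 3 and 4 or more Hsd3b6 UMIs; few barcodes are high for both genes.

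The groups at either end differed in more than these genes. Without thinning, the barcodes low in Hsd3b6 held Hsd3b1 at 2431 CPM against 987 CPM in those high in it, Cyp11a1 at 4032 against 2309.9, Agt at 2389 against 956 and Inha at 860.5 against 316. Pgbd5 was at 276 against 81.3 CPM. Star, Hsd17b3 and Insl3 went the other way, at 2359 against 3170.3, 569.5 against 761 and 2448 against 3778 CPM. Hsd3b1, Cyp11a1 and Insl3 helped to choose the barcodes, so nothing is read from their differences between the groups. Fdx1 was at 2012 and 1947 CPM. Barcodes that carried another class's markers were 8.87% of the low and 2.59% of the high group, and Myh11, of contractile cells, was at 69.4 against 8.34 CPM. Their part in these differences was not tested. Hsd3b1 and Hsd3b6 share 38 of 1851 stretches of 50 bases (2.05%) and none in the last 500 bases of the transcript.

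The same rule found 7 Leydig barcodes among 5407 WT barcodes with at least 500 genes, 0.129% (0.0521% to 0.267%). The share in the KO library was higher, but whether there were more Leydig cells or fewer germ cells cannot be told apart from shares of a library. Of barcodes that carried markers of any interstitial class, Leydig barcodes were 749 of 2006 in KO (37.3%, 35.2% to 39.5%) and 7 of 25 in WT (28.0%, 12.1% to 49.4%). These intervals overlap. The WT barcodes had a median depth of 8757 UMIs and 60968 in all, which limits every comparison below.

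All 7 WT Leydig barcodes also carried transcripts of spermatids, whose markers passed the limits in 0 KO barcodes. Prm1, Prm2, Tnp1 and Tnp2 took 0.528% of their UMIs and 6.19% of the UMIs of the other WT barcodes. These and other germ cell genes led those higher in WT: Prm1 stood at 1968 CPM in the WT and 0.188 in the KO Leydig barcodes, and Ldhc at 705 against 0.377. Smcp, Meig1, Phf7, Ropn1l and Asrgl1 completed the 10 highest. In the other WT barcodes Prm1 was at 22298 CPM. Some genes higher in KO were also high in other KO barcodes. Tmsb4x, at 435 against 32.8 CPM, was at 3092 in other KO barcodes, and Cst12, a Sertoli marker, at 186 against 16.4 CPM, was at 2839 in Sertoli marker barcodes. The part of free RNA in these differences was not tested.

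Few genes were deep enough to compare the Leydig barcodes of the libraries. Over the 11401 genes with at least 20 UMIs in both sums together, 171 were at least 2-fold higher in KO (percent called 1.5) and 1501 lower (percent called 13.2). Of these, all but 2 and 22 had fewer than 20 UMIs in the WT Leydig barcodes. Over the 443 genes with at least 20 UMIs in the WT Leydig barcodes, a limit added after seeing the data, 2 were at least 2-fold higher (percent called 0.451) and 22 lower (percent called 4.97). The 2 were Sparcl1, a matrix protein gene, at 1120.4 against 459 CPM, and the predicted gene Gm15564, at 1102 against 394 CPM, which was named after its values were seen. Among the list members that met this limit were 4 of the 6 androgen enzymes, 2 of 15 cholesterol supply genes and 5 of 23 cholesterol synthesis genes. It was also met by 3 of 17 genes of luteinising hormone receptor and cyclic AMP signalling, 2 of 8 other hormone receptors and 14 of 23 detoxification genes. So did 2 of 15 genes of lipid droplets and fatty acids and 7 of 19 early response and heat shock genes meet it. None of these were 2-fold apart, a count near the share over all genes. Of the 7 early response and heat shock genes 6 were higher in KO, with a median log2 ratio of 0.39. Of the 14 detoxification genes 3 were higher, with a median of -0.18, and the median over the 443 genes was -0.08. Of the secreted factors 2 met the limit and 1, Agt, was at least 2-fold lower.

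For Star, Hsd17b3 and Lhcgr the interval of the ratio between the libraries included 1. Star was at 2988 CPM in KO and 3412 in WT Leydig barcodes, 0.876 times (0.764 to 1.01). Hsd17b3 was at 719.5 and 869 CPM, 0.828 times (0.631 to 1.11), and Lhcgr at 440.1 and 394 CPM, 1.12 times (0.749 to 1.75). Cyp11a1, at 2638 CPM in KO and 4757 in WT, helped to choose the barcodes, so nothing is read from its levels. Of the 5 cholesterol synthesis genes with at least 20 WT UMIs, 2 were higher in KO and 3 lower, with a median log2 ratio of -0.02. Over all 23 the median was 0.03, with 12 higher. Of the 5, Msmo1 had the ratio farthest from 1, at 476 against 804 CPM, 0.592 times (0.446 to 0.802). The intervals cover counting error and not the spread between barcodes or between animals. Among thinned KO Leydig barcodes the variance over mean was 5.12 for Star, 2.07 for Hsd17b3 and 1.71 for Lhcgr. Counting alone gives 1, so the intervals are narrower than the spread between barcodes would make them.

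Agt, Ptgds and Gstm1 were lower in the KO Leydig barcodes. Agt stood at 1251 CPM in KO and 3346 in WT, 0.374 times (0.325 to 0.432). The 7 WT barcodes held Agt at 5549, 2250, 7829, 1713, 4987, 297 and 1424 CPM, and 6 of them were above the KO median of 585 CPM. Ptgds ranged from 880.0 to 16384 CPM in the WT barcodes, against a KO median of 1437 and a 95th percentile of 10795, so the groups overlap. Gstm1 was at 9799.6 to 15917 CPM in the WT barcodes, all above the KO median of 6511 CPM and none above the KO 95th percentile of 17918. The highest KO barcodes held more of each gene than any WT barcode. That range spans 749 KO barcodes against 7 in WT, so it says little about the difference.

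For some genes 1 barcode set the WT level. Rtl1, an imprinted gene, was at 112 CPM in KO and 476 in WT, but 27 of its 29 WT UMIs came from 1 barcode. The same barcode held 34 of 44 UMIs of Meg3, a noncoding RNA of the same imprinted region, and 0 UMIs of Hsd3b6 and of Lcn2.

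Lcn2 did not differ between the libraries by more than counting error, at 8615 CPM in KO and 9054 in WT, 0.952 times (0.875 to 1.04). Its partners in the correlations rested on few WT UMIs. Lrg1 was at 534 CPM in KO and 164 in WT (10 UMIs), 3.26 times (1.77 to 6.80). C3 was at 328 against 32.8 CPM, with 2 WT UMIs, 9.99 times (2.76 to 82.6), and 5 of 7 WT barcodes were at 0. Cst3 was at 5756 against 3477 CPM, 1.66 times (1.45 to 1.90).

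**Figure D5:**
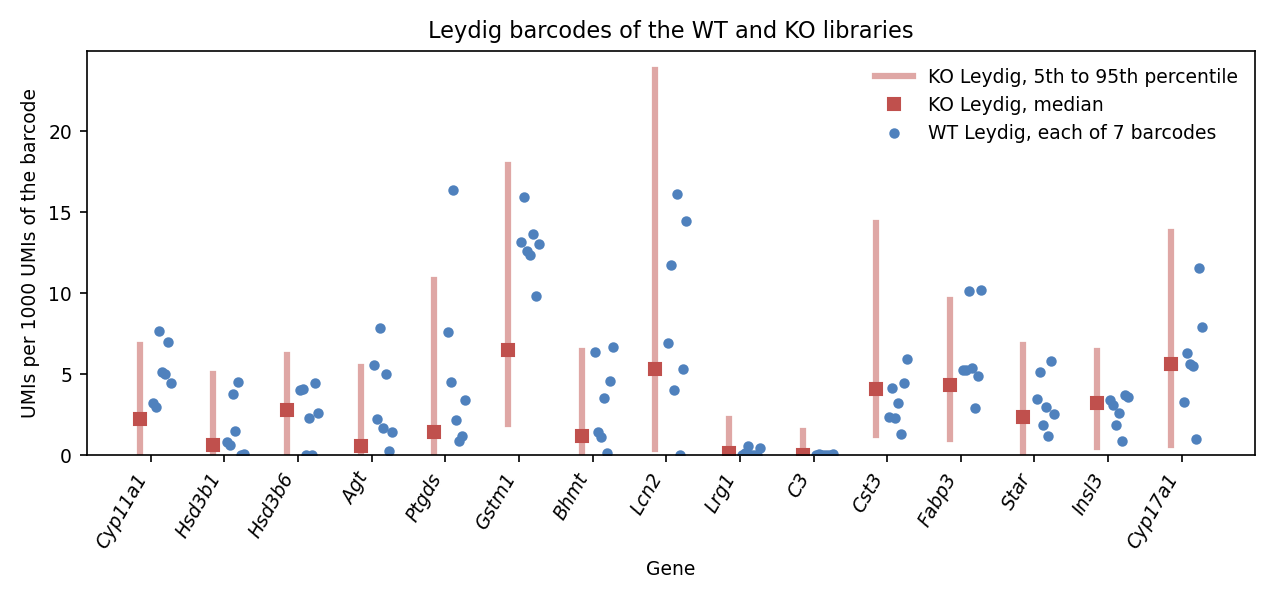
UMIs per 1000 UMIs of the barcode for 15 genes in KO Leydig barcodes (red square, median of 749; red bar, 5th to 95th percentile) and in each of the 7 WT Leydig barcodes (blue points). All 7 WT points lie above the KO median for Gstm1, and 6 of 7 for Agt; Cyp11a1, Hsd3b1, Insl3 and Cyp17a1 chose the barcodes.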

How the data were processed

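A whole-testis suspension of each genotype (WT and RAD21L KO) was run on a Chromium chip and sequenced in paired 50-base reads, as the labels' protocols state. The values used are UMI counts as deposited, not normalized, for 41459 gene symbols in each barcode. Cell Ranger 6.1.2 is named in the file headers, and Seurat 4.3 and GRCm39 in the submitters' processing notes. How barcodes were called as cells, and how reads were assigned to overlapping genes, is not given in the sources used here. The sorted cells and chromosome contact data of the series were not used here.

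UMIs were summed over barcodes of a class and scaled to CPM. Other KO barcodes were given the marker class with the most UMIs among those at 5 or more UMIs and 0.3%. The WT library held 33096309 UMIs in 5415 barcodes and the KO library 28001992 in 7118, of which 709 had under 500 genes. Levels carry exact Poisson, shares Clopper-Pearson and ratios conditional binomial intervals at 95%, which cover counting error only. The limit given for a count of 0 is 3 UMIs over the class, scaled to CPM, and not the Poisson bound. Genes needed at least 20 UMIs over both sums. Counts of 2-fold genes and list medians left out the 4 rule genes and set the smaller sum to at least 3 UMIs, while printed ratios are as counted. Named genes were list members and the 25 with the highest ratio over other KO barcodes (at least 50 UMIs). The 10 highest and lowest against stromal marker barcodes and against WT, and the 10 with the highest variance over mean, were also named. Others (in the paragraphs on Hsd3b6, on correlations and on WT barcodes) were chosen after their values were seen. Predicted, mitochondrial, ribosomal protein and haemoglobin genes were not named, and some genes that the rule covers are not reported here. Only the 2-fold calls and the ratio intervals were run on simulated data. Those were Poisson counts, the form that the intervals assume, so they say nothing on spread between barcodes.

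The members, lists and comparisons were chosen with earlier results of these data known. Promoters came from RefSeq's GRCm38.p6 table, and no coordinate was moved between builds. Python 3.11.15, numpy 2.4.6, scipy 1.17.1, pandas 2.3.3 and scanpy 1.11.5 (for Scrublet, expected rate 5%) were used with seed 1.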

Additional observations from a re-analysis of the deposited data

How the results depend on the processing

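The results were recomputed under 7 other settings, which gave 55 values, and under 4 chosen after seeing the data, which gave 21. Leydig barcodes were 7.82% of KO barcodes when the rule genes had to reach 1% of UMIs and 15.05% over barcodes with at least 1000 genes. Without barcodes past the limits of another class the WT share was 0%, since all 7 carried spermatid transcripts, so that setting gave no comparison with KO. With the median gene set to a ratio of 1, 3602 genes were higher and 3514 lower than in other KO barcodes, the median log2 ratios were 3.98 for androgen enzymes and 3.26 for cholesterol synthesis, and 2271 genes were higher and 351 lower in KO than in WT Leydig barcodes. With at least 20 UMIs in WT these were 2 and 22, and with no filter on low counts 2965 were lower. The median gene of KO over WT stood at a log2 ratio of -1.08, and at -0.08 over genes with at least 20 WT UMIs. Genes with under 3 WT UMIs were set to 3, which lowers the first of these medians. The counts of 2271 and 351 rest on that median and are not read as a difference between the libraries. The other 64 values kept their direction and size within the limits set, which were not the same for shares and for counts. Among these 64, genes higher than in other KO barcodes numbered 2500 with no filter on low counts, against 1740. The variance over mean of Lcn2 was 16.8 after thinning to 2000 UMIs against 25.1 at 3000, and fewer UMIs per barcode lower it by construction. No paired analysis was possible because each genotype has 1 library, and for the same reason no replicate could be left out. In the WT Leydig barcodes, 3 UMIs are 49.2 CPM, which sets what can be compared.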
